A study of Mus musculus with 27 samples.

Results

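The 9 genes described here encode serotonin and muscarinic acetylcholine receptors of striatal neurons: Htr1b, Htr1d, Htr2a, Htr2c, Htr4, Htr6, Chrm1, Chrm3 and Chrm4. They were chosen by name, and each was read on the probe set with the highest mean over 27 arrays. Of the 18193 genes with a probe set of their own, 8 were members: Htr2a had no probe set under its symbol alone in the array annotation and was not analysed here. Of these 8, 5 passed the filter on dim signals (above 6 on the log2 scale on at least 3 arrays) and were tested among 12017 genes, namely Htr1b, Htr1d, Htr2c, Htr4 and Chrm1. Htr6, Chrm3 and Chrm4 lay under that floor on every array.

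The study measured messenger RNA bound to tagged ribosomes in striatum from males of 2 to 5 months, by translating ribosome affinity purification (TRAP) and Affymetrix arrays. Drd1-TRAP mice carry the GFP-tagged ribosomal protein L10a in neurons that express the dopamine D1 receptor, and Drd2-TRAP mice in those that express the D2 receptor. Mice of all groups were G9a fl/fl, with both copies of the histone methyltransferase gene G9a (Ehmt2) floxed, on a mixed background of C57BL/6 and 129/Sv with 2 generations of backcrossing to C57BL/6. The 8 groups were D1 mutants (Drd1-TRAP; Drd1-Cre; G9a fl/fl) given cocaine (4 mice) or saline (3), D1 controls without Cre (Drd1-TRAP; G9a fl/fl) given cocaine (4) or saline (2), D2 mutants (Drd2-TRAP; Drd2-Cre; G9a fl/fl) given cocaine (4) or saline (3), and D2 controls (Drd2-TRAP; G9a fl/fl) given cocaine (4) or saline (3). Cocaine was given at 20 mg/kg/day, and tissue was taken 2 h after the last of 8 injections. Cre and tag were driven by the same receptor promoter. No group carried Cre without the floxed alleles, so Cre and loss of G9a cannot be told apart, and the Drd2 promoter is also active in cholinergic interneurons. Because each value is a share of bulk ribosome-bound RNA, fewer tagged cells expressing a gene and less RNA per cell cannot be told apart.

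Serotonin and acetylcholine reach the same projection neurons and act on them mostly through G protein-coupled receptors. Htr1b, Htr1d and Chrm4 couple to inhibitory Gi/o proteins, Htr4 and Htr6 to the stimulatory Gs family that raises cyclic AMP, and Htr2c, Chrm1 and Chrm3 to Gq, which drives phospholipase C. In the striatum Htr1b protein sits largely on the axon terminals of projection neurons, Chrm4 is known as a receptor of D1 neurons, and acetylcholine comes mainly from local interneurons.

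The promoters of Htr1b, Htr2c and Htr1d, each called in a test of G9a loss below, are shown from RefSeq (build GRCm38.p6) because G9a acts on chromatin. Htr4, also called in such a test, had no entry among the promoters used. Each runs from 250 bases before to 50 bases after the start, 5′ to 3′ on the gene's strand, with CG dinucleotides, the sites of DNA methylation, in capitals. Htr1b lies at chr9:81633783-81634082 on the minus strand, Htr2c at chrX:146962263-146962562 on the plus strand, and Htr1d, at the outer one of 2 listed starts, at chr4:136423274-136423573 on the plus strand.
Htr1b: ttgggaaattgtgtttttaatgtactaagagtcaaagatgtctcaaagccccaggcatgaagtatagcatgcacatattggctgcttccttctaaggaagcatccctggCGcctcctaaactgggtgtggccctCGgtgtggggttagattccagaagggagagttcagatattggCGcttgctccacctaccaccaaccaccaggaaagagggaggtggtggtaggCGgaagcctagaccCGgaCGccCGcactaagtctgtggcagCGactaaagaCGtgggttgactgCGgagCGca
Htr2c: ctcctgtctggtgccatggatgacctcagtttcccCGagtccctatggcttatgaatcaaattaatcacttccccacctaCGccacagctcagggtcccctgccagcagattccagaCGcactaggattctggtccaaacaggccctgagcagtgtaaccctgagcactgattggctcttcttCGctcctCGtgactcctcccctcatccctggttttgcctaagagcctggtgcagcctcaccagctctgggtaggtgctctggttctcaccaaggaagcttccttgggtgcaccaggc
Htr1d: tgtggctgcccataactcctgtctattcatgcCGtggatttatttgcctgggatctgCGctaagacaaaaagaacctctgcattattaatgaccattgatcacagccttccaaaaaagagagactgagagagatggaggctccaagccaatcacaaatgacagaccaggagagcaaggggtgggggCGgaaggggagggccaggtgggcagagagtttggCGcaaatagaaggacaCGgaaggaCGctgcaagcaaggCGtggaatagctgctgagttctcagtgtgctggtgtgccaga
The Htr1b window held 11 CG, the Htr1d window 7 and the Htr2c window 5, against a median of 7 over 32851 promoter windows of 300 bases. At least as many CG stood in 41.4% of all windows for Htr1b, 52.1% for Htr1d and 62% for Htr2c, so none of them was an extreme of CG content. These counts describe the letters, and no chromatin measurement was analysed here.

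Loss of the target was seen on every mutant array. Ehmt2 was lower by -1.79 (SE 0.135) in D1 mutants and by -1.82 (SE 0.126) in D2 mutants than in their controls on the log2 scale, with no overlap of arrays. All 8 tested D1 markers and all 5 tested D2 markers differed between the subtypes in the direction of their names, in mutants and in controls. Ttr, a choroid plexus transcript, was above 9.5 on 3 arrays (D1 mutant saline replicate 3, D1 control cocaine replicate 3 and D2 control cocaine replicate 3), and the source name of D2 mutant cocaine replicate 4 says control where its title and genotype say mutant. Ehmt2 was at most 9.38 on the D2 mutant arrays, replicate 4 included, and at least 10.67 on the D2 control arrays. Its level on that array thus goes with the title and not with the source name. Alternatives left out the high-Ttr arrays or counted that D2 mutant array as a control, and calls that ended in them are stated. Values with and without these arrays are given for some results only. Levels and differences below are log2 values of the deposited signal, levels are compared only within a probe set, and a gene is said to have changed when its adjusted p in limma's moderated test over all 12017 genes was under 0.05.

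Htr2c, the constitutively active Gq-coupled serotonin receptor, was lower in D1 than in D2 neurons and fell with G9a loss in both subtypes. In D2 neurons its levels were 10.12, 10.19, 10.21 and 10.65 in mutants given cocaine and 10.36, 10.64 and 10.55 in mutants given saline, against 10.97, 11.17, 10.94 and 11.21 in controls given cocaine and 10.88, 11.07 and 11.19 in controls given saline. Every D2 mutant array was below every D2 control array, under either drug, and 4.75% of all tested genes were as clearly apart in D2 neurons. In D1 neurons the levels were 9.43, 9.48, 9.67 and 9.55 in mutants given cocaine and 9.48, 9.39 and 9.37 in mutants given saline, against 9.82, 9.82, 9.46 and 10.13 in controls given cocaine and 9.83 and 9.94 in controls given saline. Here the mutant and control arrays overlapped through 1 low control, D1 control cocaine replicate 3, one of the arrays with high Ttr. From the highest group to the lowest, the order was D2 controls, D2 mutants, D1 controls and D1 mutants, with the drugs side by side in each. Arrays did not overlap at the step from D2 controls to D2 mutants, nor between D2 mutants given cocaine and D1 controls given saline, and they overlapped at the other 5 steps between neighbouring groups. The highest D1 control given cocaine, at 10.13, lay just above the lowest D2 mutant given cocaine, at 10.12.

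**Figure D1:**
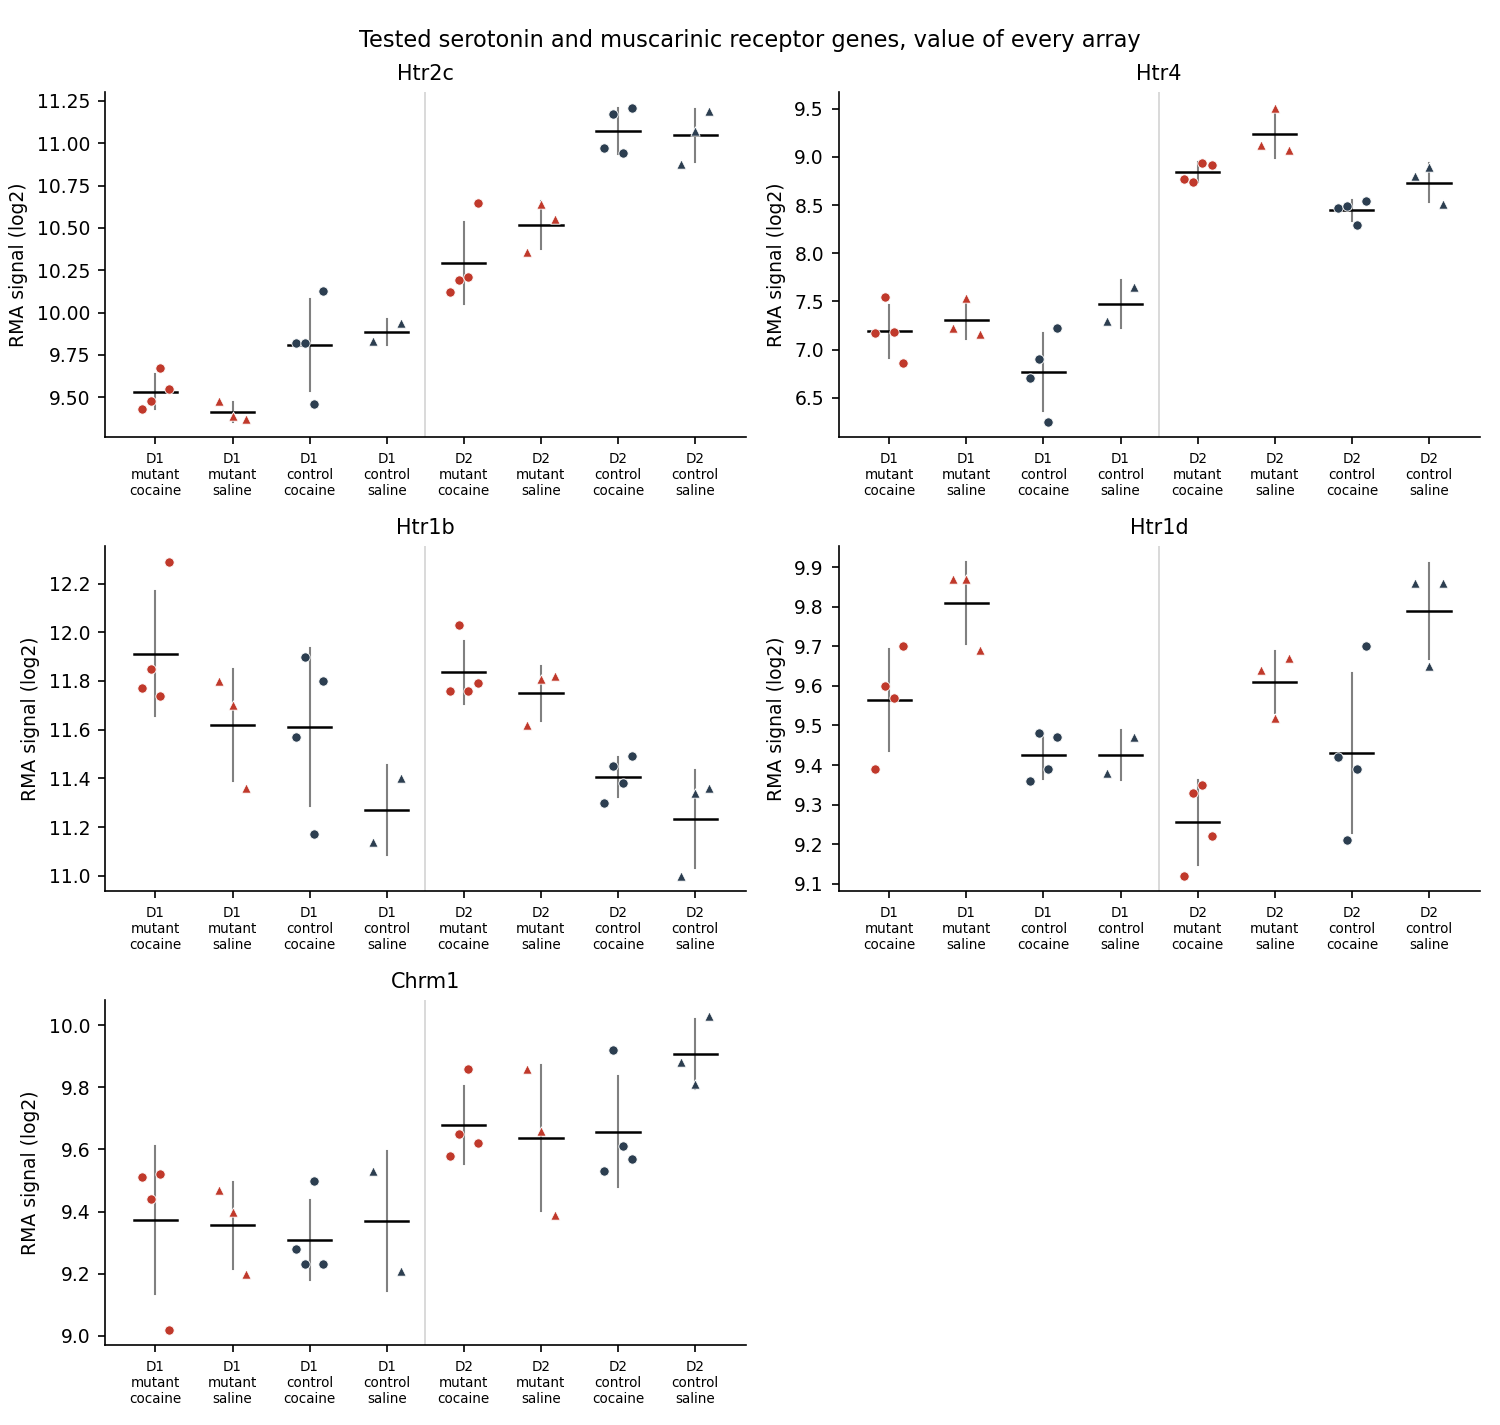
Log2 signal of the 5 tested receptor genes on every array (points; circles cocaine, triangles saline; red mutants, dark blue controls), with the mean (line) and SD (vertical bar) of each of the 8 groups. Htr2c steps down from D2 controls to D2 mutants without overlap, Htr4 is higher on all D2 than on all D1 arrays, and the axes start above 0 and differ between genes.

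The difference between mutants and controls was -0.65 for Htr2c in D2 neurons (SE 0.092, 95% interval -0.84 to -0.46, adjusted p = 1.38e-05) and -0.37 in D1 neurons (SE 0.099, -0.58 to -0.17, adjusted p = 0.0264). The D2 value corresponds to 1.57-fold lower signal in mutants and the D1 value to 1.29-fold. The D2 effect minus the D1 effect was -0.28 and did not pass (SE 0.135, adjusted p = 0.401). In D2 neurons the call held in each alternative and without any 1 array. In D1 neurons the adjusted p was 0.143 (-0.35) with D1 control saline replicate 2 left out, and the call also ended for D1 control saline replicate 1 (-0.40, 0.0813), D1 mutant saline replicate 2 (-0.37, 0.0575), D1 mutant cocaine replicate 1 (-0.36, 0.057), D1 mutant saline replicate 3 (-0.36, 0.0542) or D1 control cocaine replicate 4 (-0.32, 0.0522). It also ended in a fit of the D1 arrays alone (-0.37, adjusted p = 0.0527). The second Htr2c probe set, made from the RefSeq transcript and dim (mean level 5.07), also fell in D2 mutants, by -0.54 (adjusted p = 5.32e-04), but was at -0.03 in D1 mutants (adjusted p = 0.958). Choroid plexus transcribes Htr2c strongly. The mean level of the 7 choroid plexus markers with a probe set was 5.95 to 6.03 in D2 mutants given cocaine and 5.93 to 6.30 in those given saline, against 5.35 to 6.30 in D2 controls given cocaine and 5.36 to 5.65 in those given saline, while Folr1, Aqp1, Kcnj13 and Otx2 stayed under the floor of 6 on all arrays. Of the 3 tested, Kl, which encodes klotho, rose in D2 mutants by 2.23 (adjusted p = 2.73e-15) and in D1 mutants by 1.55 (adjusted p = 4.12e-11), and its effects differed by 0.68 (adjusted p = 0.0122). Clic6, an intracellular chloride channel gene, rose in D2 mutants by 0.44 (adjusted p = 0.021) and was at 0.33 in D1 mutants (adjusted p = 0.242). Ttr was at 0.76 in D2 mutants (adjusted p = 0.636) and 1.18 in D1 mutants (adjusted p = 0.684). Across the 27 arrays Htr2c correlated with Ttr at r = -0.25. Without the 3 arrays with high Ttr, Htr2c was at -0.68 in D2 mutants (adjusted p = 6.09e-06) and -0.42 in D1 mutants (adjusted p = 0.01).

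Markers of the subtypes themselves moved in the same D2 samples. Drd2 fell in D2 mutants by -0.49 (adjusted p = 0.00315), as 1 of 5 tested D2 markers, and Drd1 rose by 0.54 (adjusted p = 0.00113). Of the 8 D1 markers 3 rose in D2 mutants, the others being Isl1, by 0.98 (adjusted p = 1.71e-06), and Slc35d3, by 0.56 (adjusted p = 0.0174). The median of the 8 D1 markers was 0.22 and that of the 5 D2 markers -0.00, and none of either list was called in D1 mutants. The part of these shifts in the receptor results was not tested.

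Between subtypes Htr2c was lower in D1 neurons by -0.93 in mutants (SE 0.092, adjusted p = 2.04e-08) and by -1.21 in controls (SE 0.099, adjusted p = 9.40e-10). The mean levels were 9.47 in D1 and 10.40 in D2 mutants, and 9.85 in D1 and 11.06 in D2 controls. No D1 array reached the lowest D2 array of the same genotype. Markers of other cell types also differed on average between the same subtypes, here and for each receptor compared between subtypes below. Both tested cholinergic markers were lower in D1 neurons (median -2.62 in mutants and -1.80 in controls), as were all 4 tested oligodendrocyte markers (-0.91 and -0.51). Both tested cortical neuron markers were higher in D1 neurons (median 1.92 in mutants and 2.01 in controls), as were 4 of 5 GABAergic interneuron markers (0.44 and 0.38). With the mean level of the cholinergic markers as a covariate, chosen after the data were seen, Htr2c was at -1.0 in mutants and did not pass (adjusted p = 0.109), and it passed in controls (-1.25, adjusted p = 0.0031). That covariate itself separates the subtypes, and the part of the other cell types was not tested. The genes most like Htr2c over the 27 arrays were Fst, a secreted activin antagonist (r = 0.94), Mme, the membrane peptidase neprilysin (r = 0.93), and Gli3, a transcription factor of hedgehog signalling (r = 0.92). These correlations describe 27 arrays that fall into 2 subtypes, so any gene that separates the subtypes scores high.

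Htr4, a Gs-coupled serotonin receptor, had the opposite response to G9a loss in D2 neurons. Its levels were 8.77, 8.74, 8.94 and 8.92 in D2 mutants given cocaine and 9.12, 9.51 and 9.07 in D2 mutants given saline, against 8.47, 8.49, 8.29 and 8.54 in D2 controls given cocaine and 8.80, 8.89 and 8.51 in D2 controls given saline. Within each drug all mutant arrays lay above all control arrays, while mutants given cocaine overlapped controls given saline. The share of all genes so apart within a drug was not computed, and with groups of 3 or 4 arrays such gaps can arise by chance. Htr4 rose in D2 mutants by 0.45 (SE 0.122, 95% interval 0.20 to 0.70, adjusted p = 0.0155), 1.36-fold. The call ended without D2 mutant saline replicate 2 (0.38, adjusted p = 0.0621), without D2 control saline replicate 3 (0.39, adjusted p = 0.054), and with D2 mutant cocaine replicate 4 counted as a control (0.39, adjusted p = 0.0795). In D1 neurons the difference was 0.12 (SE 0.13, -0.15 to 0.39, adjusted p = 0.785), and the difference between the subtypes' effects was 0.32 (adjusted p = 0.483).

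Markers of cholinergic interneurons moved in the same samples as the Htr4 rise. Of 5 listed markers 4 had a probe set, and their mean level per array was 5.88 to 6.40 in D2 mutants given cocaine and 6.18 to 6.27 in D2 mutants given saline, against 5.37 to 6.01 in D2 controls given cocaine and 5.47 to 6.03 in D2 controls given saline. Lhx8, a transcription factor of these interneurons, rose by 1.17 (adjusted p = 5.79e-06), the vesicular acetylcholine transporter Slc18a3 was at 0.37 (adjusted p = 0.155), and Chat, which makes acetylcholine, stayed between 4.24 and 4.81 on all D2 arrays. With their mean level as a covariate the Htr4 difference was 0.38 and did not pass (adjusted p = 0.241). Oligodendrocyte markers moved too: 3 of 4 tested rose in D2 mutants, and the mean level of the 5 with a probe set was 8.26 to 8.59 with cocaine and 8.26 to 8.61 with saline in mutants, against 7.33 to 8.09 with cocaine and 8.12 to 8.17 with saline in controls. The cholinergic covariate itself shifted with genotype in D2 neurons, so a call lost with it cannot tell the part of these interneurons. The part of either cell type in the D2 results was not tested.

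Between subtypes Htr4 was lower in D1 neurons by -1.79 in mutants (SE 0.122, adjusted p = 2.54e-11, 3.46-fold) and by -1.47 in controls (SE 0.13, adjusted p = 5.19e-09, 2.76-fold). D1 arrays spanned 6.25 to 7.65, and all D2 arrays lay above them. With the cholinergic covariate the mutant value did not pass (-1.59, adjusted p = 0.057) and the control value did (-1.34, adjusted p = 0.0163). The oligodendrocyte, cortical and GABAergic markers given beside Htr2c differed on average between these subtypes too. The second Htr4 probe set was near background on all arrays (mean 4.27) and called a difference between the subtypes in mutants (-0.24, adjusted p = 0.0234) but not in controls (-0.04, adjusted p = 0.757). The genes most like Htr4 were Necab1, which encodes a neuronal calcium-binding protein, Abca1, a cholesterol exporter, and Nell1, a secreted protein, all at r = 0.94 over 27 arrays. Htr4 and Htr2c, both higher in D2 than in D1 neurons of the same genotype, correlated at r = 0.75 with each other over the 27 arrays. G9a loss moved them in opposite directions in D2 neurons.

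Htr1b, a Gi/o-coupled receptor that dampens transmitter release, rose in D2 mutants. Its levels were 11.76, 12.03, 11.76 and 11.79 in D2 mutants given cocaine and 11.62, 11.81 and 11.82 in D2 mutants given saline, against 11.30, 11.45, 11.38 and 11.49 in D2 controls given cocaine and 11.00, 11.34 and 11.36 in D2 controls given saline. The lowest D2 mutant array was above the highest D2 control array. The difference was 0.47 (SE 0.107, 95% interval 0.25 to 0.69, adjusted p = 0.00367), 1.39-fold, and it held in each alternative and without any 1 array. In D1 neurons the levels were 11.77, 11.85, 11.74 and 12.29 in mutants given cocaine and 11.80, 11.70 and 11.36 in mutants given saline, against 11.57, 11.90, 11.17 and 11.80 in controls given cocaine and 11.14 and 11.40 in controls given saline. The D1 arrays overlapped, and the difference of 0.33 did not pass (SE 0.114, 0.09 to 0.56, adjusted p = 0.136), although it passed with the Ttr level as a covariate (0.39, adjusted p = 0.0374). The effects in D2 and D1 differed by 0.15 (adjusted p = 0.793).

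The Htr1b result rests on 1 of 2 probe sets. The other, made from the RefSeq transcript (mean level 7.54), was between 7.39 and 7.80 on all 27 arrays and was at -0.03 in D2 mutants (95% interval -0.15 to 0.09, adjusted p = 0.789). The brighter probe set, made from a GenBank entry, had a mean level of 11.61. Htr1b did not pass between subtypes, with a D1 minus D2 difference of -0.03 in mutants (adjusted p = 0.872) and 0.12 in controls (adjusted p = 0.465), and its direction there turned under several alternatives. The genes most like it over the 27 arrays were the imprinted gene Peg3 (r = 0.83), the atypical protein kinase Prkci (0.82) and the lysine methyltransferase Setd7 (0.81).

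**Figure D2:**
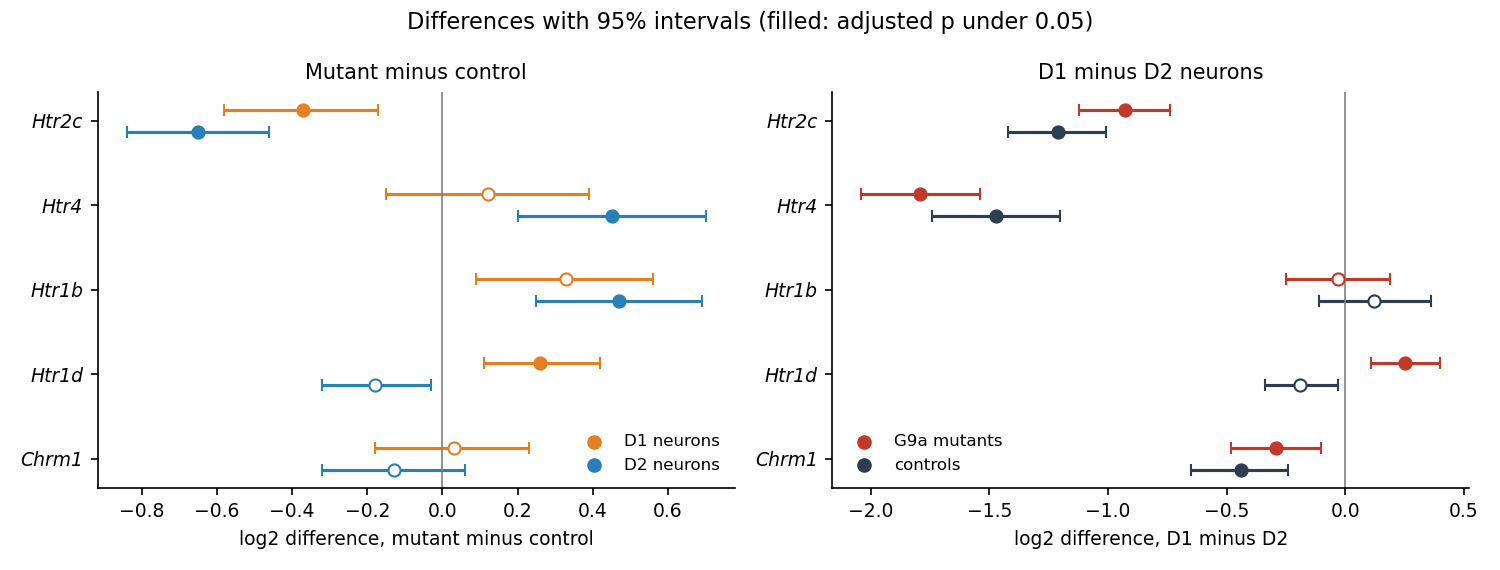
Log2 differences of the 5 tested genes with 95% intervals: mutant minus control in D1 and D2 neurons (left) and D1 minus D2 neurons in mutants and controls (right); filled points have an adjusted p under 0.05. Htr2c is at -0.37 and -0.65 in D1 and D2 mutants, and Htr1d has opposite signs in the subtypes.

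Htr1d, a Gi/o-coupled relative of Htr1b, was the only tested member for which the effect of G9a loss was called different between the subtypes. In D1 neurons its levels were 9.39, 9.60, 9.57 and 9.70 in mutants given cocaine and 9.87, 9.87 and 9.69 in mutants given saline, against 9.36, 9.48, 9.39 and 9.47 in controls given cocaine and 9.38 and 9.47 in controls given saline. All D1 mutants given saline exceeded all D1 controls, and 1 mutant given cocaine lay among the controls. The share of all genes with saline arrays so apart was not computed. In D2 neurons its levels were 9.12, 9.33, 9.35 and 9.22 in mutants given cocaine and 9.64, 9.52 and 9.67 in mutants given saline, against 9.42, 9.21, 9.39 and 9.70 in controls given cocaine and 9.86, 9.65 and 9.86 in controls given saline. D2 mutants and controls overlapped under either drug.

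Htr1d rose in D1 mutants by 0.26 (SE 0.074, 95% interval 0.11 to 0.42, adjusted p = 0.0415), while its D2 difference of -0.18 did not pass (SE 0.069, -0.32 to -0.03, adjusted p = 0.0991). The D2 effect minus the D1 effect was -0.44 (SE 0.102, adjusted p = 0.0319). The D1 rise ended in 4 of 13 other settings, such as median centring (0.23, adjusted p = 0.0673), and it ended without any 1 of 11 arrays, with an adjusted p of up to 0.251 without D1 control saline replicate 1; the others were D1 control saline replicate 2, D1 control cocaine replicates 1 and 3, D1 mutant cocaine replicates 2, 3 and 4, D1 mutant saline replicates 1 and 2, D2 mutant cocaine replicate 4 and D2 mutant saline replicate 1. The difference between subtypes ended without any 1 of 9 arrays (-0.42 to -0.46, adjusted p up to 0.128), namely D1 mutant cocaine replicate 4, D1 mutant saline replicates 1 and 2, both D1 control saline arrays, D2 mutant cocaine replicate 4, D2 mutant saline replicate 2 and D2 control saline replicates 1 and 3. It also ended with D2 mutant cocaine replicate 4 counted as a control (-0.41, adjusted p = 0.16), on the probe set with the highest variance (-0.31, adjusted p = 0.316) and with the cholinergic covariate (-0.53, adjusted p = 0.0568). On the other 2 Htr1d probe sets the difference between subtypes was -0.31 (adjusted p = 0.273) and -0.21 (adjusted p = 0.571), the same sign without a call. The D1 rise was not called on them either. It was 0.28 (adjusted p = 0.0868) on the first and 0.05 (adjusted p = 0.897) on the second, which was made from the RefSeq transcript.

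Between subtypes Htr1d was higher in D1 neurons in mutants by 0.25 (SE 0.069, adjusted p = 0.00461), and in controls the difference was -0.19 (SE 0.074, adjusted p = 0.0615). The mutant call ended with the replicate number as a block (0.21, adjusted p = 0.137) and with the cholinergic covariate (0.50, adjusted p = 0.286). The control value passed with the RNA quality covariate (-0.19, adjusted p = 0.0474). It was -0.22 and passed when either D2 control cocaine replicate 2 (0.0237) or D2 control saline replicate 2 (0.0383) was left out, the adjusted p being given for each. The genes most like Htr1d were the cytokine receptor subunit Il6st (r = 0.76), Gemin2 of the SMN complex (0.74) and the palmitoyltransferase Zdhhc3 (0.73). Htr1d did not follow the other members: its correlation with Htr1b, Htr2c, Htr4 and Chrm1 over 27 arrays lay between -0.07 and -0.03.

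**Figure D3:**
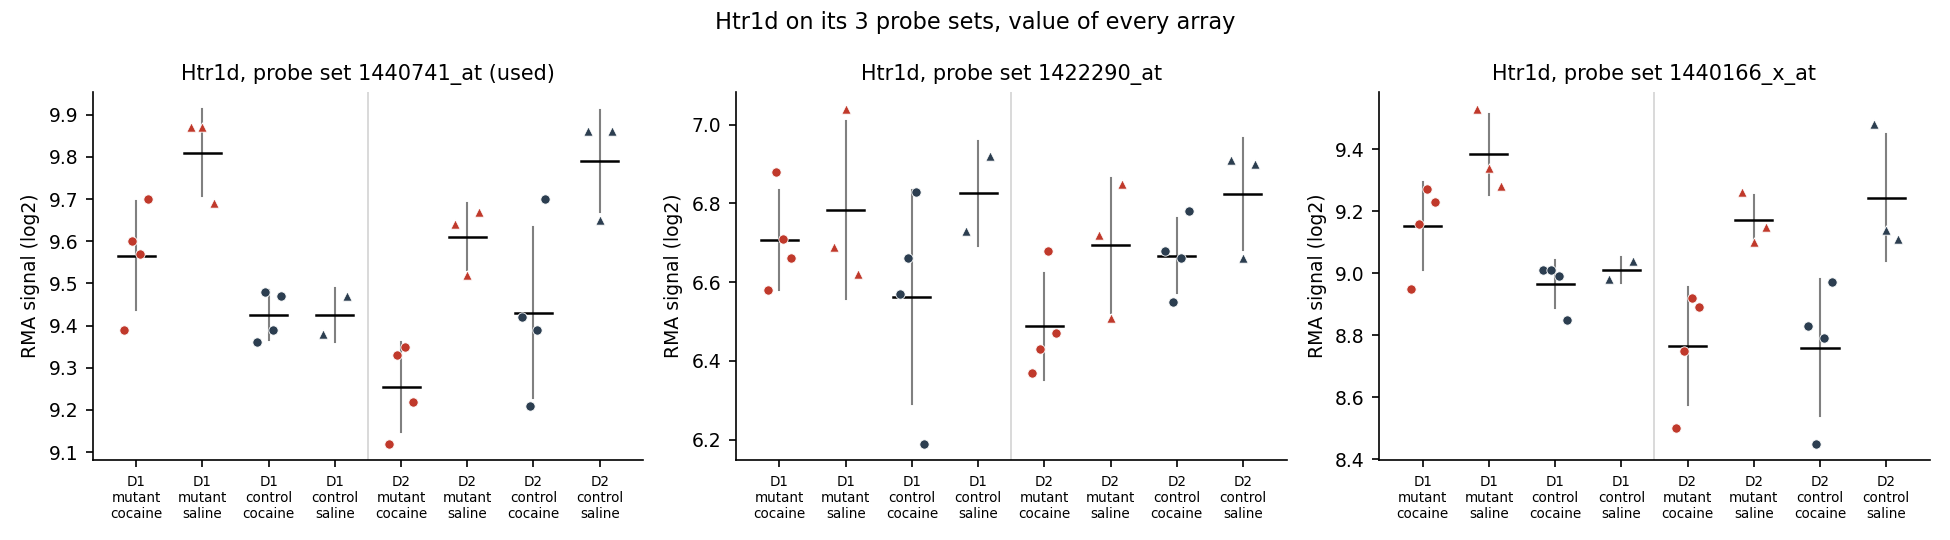
Log2 signal of Htr1d on its 3 probe sets on every array (circles cocaine, triangles saline; red mutants, dark blue controls), with the mean (line) and SD (vertical bar) of each group. In D2 neurons the cocaine groups have lower means than the saline groups of the same genotype on each probe set, and the axes start above 0.

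Chrm1, the Gq-coupled muscarinic receptor of projection neurons, differed between subtypes and was not called for G9a loss. D1 arrays spanned 9.02 to 9.52 in mutants and 9.21 to 9.53 in controls, and D2 arrays 9.39 to 9.86 in mutants and 9.53 to 10.03 in controls. Chrm1 was lower in D1 neurons by -0.29 in mutants (SE 0.092, adjusted p = 0.0128), where arrays overlapped, and by -0.44 in controls (SE 0.099, adjusted p = 0.00138), where the arrays nearest each other both round to 9.53 and did not overlap. The mutant call ended without D2 mutant saline replicate 1 (-0.24, adjusted p = 0.0536), under cyclic loess (-0.22, adjusted p = 0.0747), with the replicate block (-0.19, adjusted p = 0.362) and with the cholinergic covariate (-0.03, adjusted p = 0.979). The control call ended with the block (-0.34, adjusted p = 0.128) and with that covariate (-0.27, adjusted p = 0.588). Mutants minus controls was -0.13 in D2 neurons (95% interval -0.32 to 0.06, adjusted p = 0.417) and 0.03 in D1 neurons (-0.18 to 0.23, adjusted p = 0.955), and the effects differed by -0.15 (adjusted p = 0.728). Its second probe set had the same sign between subtypes, at -0.14 in mutants (adjusted p = 0.118) and -0.30 in controls (adjusted p = 0.00318). The genes most like Chrm1 were the neuronal surface protein Thy1 (r = 0.90), Bsg (0.89), which encodes basigin, and Nrsn2 (0.89), a neurensin.

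Across the 5 tested members, 4 were called between D1 and D2 neurons in mutants, 3 lower and 1 higher in D1, where 42.4% of all tested genes were called (25.8% lower and 16.6% higher). In controls 3 were called, all lower in D1, where 29.0% of all genes were called (17.1% lower and 11.9% higher). Arrays of the subtypes did not overlap for 2 members in mutants and 3 in controls, against 17.5% and 8.66% of all genes. The members' median difference was -0.29 in mutants and -0.44 in controls, against -0.04 and -0.03 over all tested genes.

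With G9a loss in D2 neurons 2 members rose and 1 fell, where 12.2% of all genes were called (8.41% up and 3.82% down), and the members' median was -0.13 against 0.02 over all genes. Arrays did not overlap for Htr1b and Htr2c, as for 4.75% of all genes. In D1 neurons 1 member rose and 1 fell, where 4.22% were called (3.10% up and 1.12% down), and the median was 0.12 against 0.01. Mutant and control arrays overlapped for all 5 members there, while 2.44% of all genes did not overlap. For the difference between the subtypes' effects 1 of 5 was called, and it was negative, where 0.990% of all genes were called and 0.333% were negative. With 5 members these shares are counts and say nothing about the receptors as a class.

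**Figure D4:**
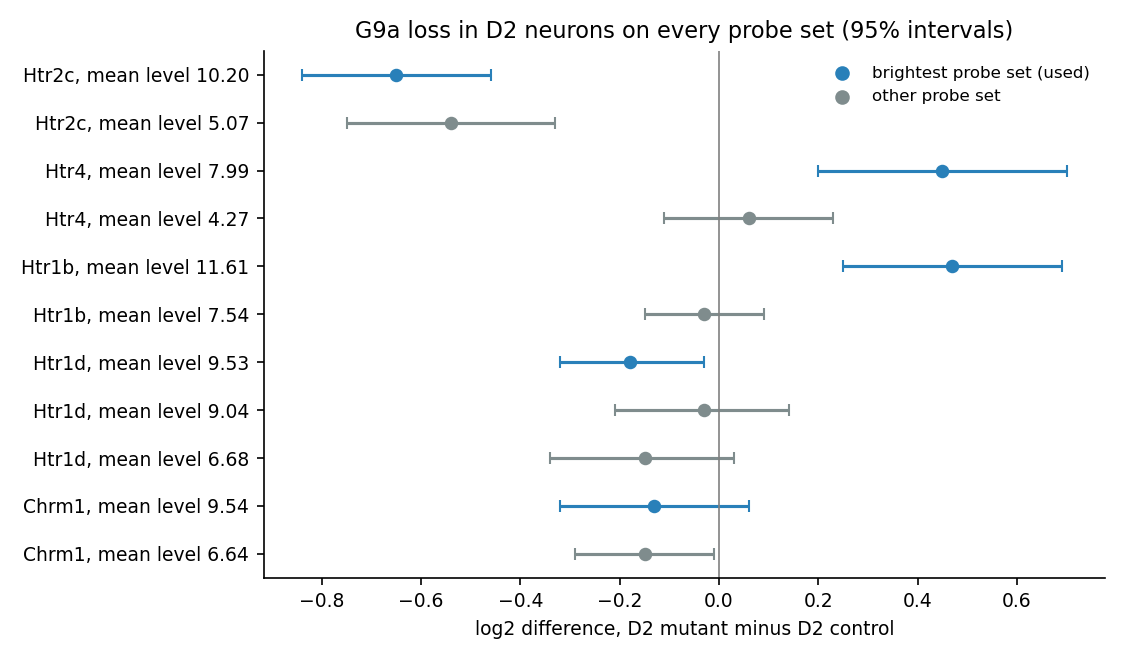
Log2 difference of D2 mutants minus D2 controls with 95% intervals on every probe set of the 5 tested genes; blue marks the brightest probe set, used in the text, and grey the others. Both Htr2c probe sets lie below 0, while the dimmer probe sets of Htr1b and Htr4 lie near 0.

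Repeated cocaine called no member within any of the 4 combinations of subtype and genotype. Of all tested genes 0.0915% were called in D1 mutants, 0.0666% in D1 controls, 0% in D2 mutants and 0.133% in D2 controls. In D2 mutants 588 genes (4.89%) had an unadjusted limma p under 0.05, about the share that chance gives, among them 2 members. That share was 11.8% in D1 mutants, 11.7% in D1 controls and 9.4% in D2 controls, with 1 member in each. The largest member value was that of Htr4 in D1 controls, with 6.70, 6.90, 6.25 and 7.22 under cocaine and 7.30 and 7.65 under saline. The arrays did not overlap, as was true of 19.8% of all genes in that comparison, and the difference of -0.71 did not pass (SE 0.196, 95% interval -1.11 to -0.31, adjusted p = 0.142). Without the 3 arrays with high Ttr, one of which held the lowest value, it was -0.54 (adjusted p = 0.16). The measure of RNA quality, the 3′ minus 5′ difference of control probe sets, was also apart in these groups, at 2.17 to 2.90 under cocaine and 1.96 to 2.01 under saline, and with it as a covariate Htr4 was at -0.89 (adjusted p = 0.2). In D1 mutants Htr4 differed by -0.12 (adjusted p = 0.835), and the difference between the genotypes' cocaine effects was 0.59 (SE 0.261, adjusted p = 0.403). Htr4 was also below its saline level in D2 neurons, at -0.39 in mutants (adjusted p = 0.98) and -0.28 in controls (adjusted p = 0.657), without a call. Htr1b was above it, at 0.29 in D1 mutants (adjusted p = 0.459), 0.33 in D1 controls (0.458), 0.09 in D2 mutants (0.995) and 0.17 in D2 controls (0.796).

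Htr1d was lower under cocaine in D2 neurons of both genotypes, by -0.35 in mutants (SE 0.098, adjusted p = 0.59) and -0.36 in controls (SE 0.098, adjusted p = 0.155). Neither passed, although D2 mutant arrays did not overlap between the drugs, as in 7.45% of all genes, and the control value passed without D2 control cocaine replicate 4 (-0.45, adjusted p = 0.028). Averaged over the genotypes, a contrast added after the data were seen, Htr1d fell with cocaine in D2 neurons by -0.36 (SE 0.069, 95% interval -0.50 to -0.21, adjusted p = 0.0273), 1 of 16 genes called (0.133% of all). A second probe set fell in that contrast as well (-0.44, adjusted p = 0.021), and the third did not pass (-0.18, adjusted p = 0.538). The pooled call ended without the 3 arrays with high Ttr (-0.35, adjusted p = 0.0545) and without any 1 of 10 D2 arrays, with an adjusted p of up to 0.128 without D2 control saline replicate 3. The other 9 were D2 mutant cocaine replicates 1 and 4, D2 mutant saline replicates 1, 2 and 3, D2 control cocaine replicates 1, 2 and 3 and D2 control saline replicate 1. The pooled call also ended in a fit of the compared groups alone (-0.36, adjusted p = 0.0993) and with the cholinergic covariate (-0.33, adjusted p = 0.109). In D1 neurons Htr1d differed by -0.24 in mutants (SE 0.098, adjusted p = 0.333) and 0.00 in controls (SE 0.111, adjusted p = 0.999), with a difference between genotypes of -0.24 (adjusted p = 0.565). Pooled it was -0.12 (adjusted p = 0.569), and the difference between the subtypes' cocaine effects was not tested.

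The remaining members were dim, so that their differences are bounded by background. Each had only 1 probe set, made from the RefSeq transcript. For Htr1b, Htr1d, Htr2c and Chrm1 the probe set of that kind had mean levels of 7.54, 6.68, 5.07 and 6.64. The probe sets used for them had 11.61, 9.53, 10.20 and 9.54. Whether the 3 dim genes or only their probe sets are dim was not tested. Chrm4, the Gi/o-coupled muscarinic receptor that opposes dopamine signalling in D1 neurons, was between 4.68 and 5.53 in D1 mutants and between 4.87 and 5.72 in D1 controls, against 4.63 to 5.00 in D2 mutants and 4.72 to 5.04 in D2 controls. In a fit without the filter it was higher in D1 neurons by 0.41 in mutants (SE 0.109, adjusted p = 0.00468) and by 0.58 in controls (SE 0.117, adjusted p = 7.08e-04), with overlapping arrays. Both D1 controls given saline, at 5.63 and 5.72, stood above all other arrays. Htr6, a Gs-coupled serotonin receptor, was between 4.18 and 4.86 on all arrays and was lower in D1 neurons in controls (-0.27, adjusted p = 0.0178) and not called in mutants (-0.15, adjusted p = 0.145). Chrm3, a Gq-coupled muscarinic receptor, was between 3.88 and 4.59 and passed neither test (-0.10, adjusted p = 0.431 in mutants; -0.20, adjusted p = 0.162 in controls). None of these 3 genes was called for G9a loss in either subtype without the filter, with adjusted p from 0.35 to 0.903. The gene most like Chrm4 over the 27 arrays was Mapk4 (r = 0.86), a kinase.

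**Figure D5:**
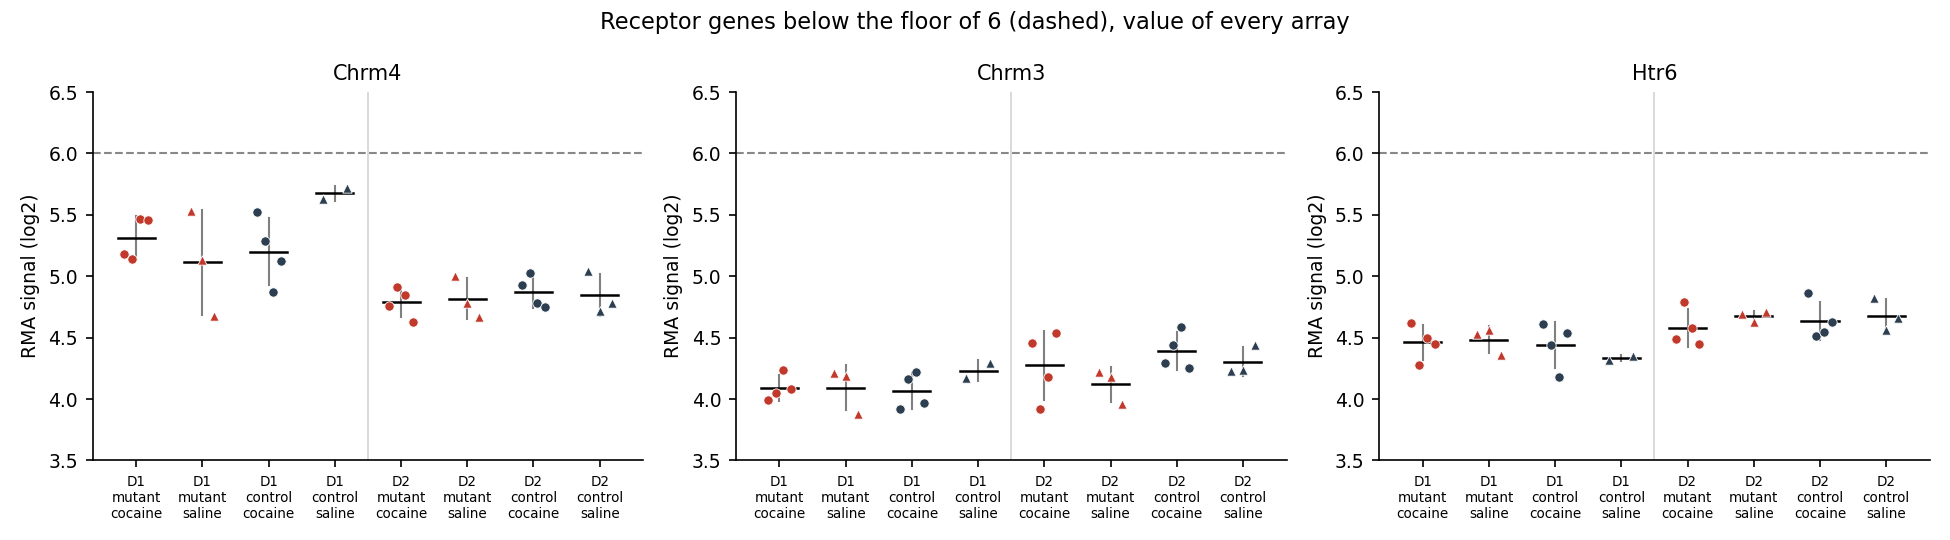
Log2 signal of Chrm4, Chrm3 and Htr6 on every array (circles cocaine, triangles saline; red mutants, dark blue controls), with the mean (line) and SD (vertical bar) of each group and the floor of 6 as a dashed line. All arrays lie under the floor, and Chrm4 is higher in D1 than in D2 groups.

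The other genes of the pathway were taken from lists of receptors, transmitter handling, G protein arms and receptor regulators. Over all tested genes, G9a loss called 12.2% in D2 neurons and 4.22% in D1 neurons, and its effect differed between the subtypes for 0.990%. Between subtypes 42.4% were called in mutants and 29.0% in controls. The genes named below are single calls from short lists and say nothing about a list as a class. Of 13 other serotonin genes 6 were tested. Maob, which degrades monoamines, rose in D2 mutants by 1.44 (adjusted p = 8.96e-07) and in D1 mutants by 1.02 (adjusted p = 5.21e-04). Htr7, a Gs-coupled serotonin receptor, fell in D2 mutants by -0.35 (adjusted p = 0.00374) and was lower in D1 than in D2 neurons, by -0.32 in mutants and -0.48 in controls. Htr1f, a Gi/o-coupled relative of Htr1b, was higher in D1 neurons by 0.73 in mutants and 0.66 in controls. The other 4 serotonin genes were not called for G9a loss in D2 neurons and the other 5 were not called in D1 neurons.

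Of 23 other acetylcholine genes 7 were tested, and 1 was called for G9a loss in D2 neurons, where 12.2% of all tested genes were. Chrna4, a nicotinic receptor subunit, fell in D2 mutants by -0.36 (adjusted p = 0.00375), and none was called in D1 mutants. Between subtypes 4 were lower in D1 neurons in mutants and 3 in controls, against 25.8% and 17.1% of all genes, and the other 3 and 4 were not called. Among those lower was Ache, which breaks down acetylcholine, at -0.87 in mutants (adjusted p = 5.55e-06) and -0.37 in controls (adjusted p = 0.0379).

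In the Gq arm 10 of 18 listed genes were tested. Plcb4, a phospholipase C, and Prkca, a protein kinase C, rose in D2 mutants by 0.82 (adjusted p = 2.84e-05) and 0.46 (adjusted p = 8.82e-04), and none was called in D1 mutants. Both effects differed between the subtypes, by 0.78 for Plcb4 (adjusted p = 0.0293) and 0.63 for Prkca (adjusted p = 0.0142). In the Gs/olf arm 9 of 12 were tested, and Adcy2, an adenylyl cyclase, rose in D2 mutants by 0.74 (adjusted p = 2.22e-04), differing from D1 by 0.78 (adjusted p = 0.0419). In the Gi/o arm 9 of 10 were tested, and Kcnj3, a potassium channel subunit opened by Gi/o-coupled receptors, fell in D2 mutants by -0.46 (adjusted p = 0.0273). The Gs/olf and Gi/o arms each had 1 of 9 called in D2 mutants, near the share over all tested genes, and no call in D1 mutants.

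Of 12 receptor regulators 10 were tested. S100a10, a cytoplasmic adaptor that binds Htr1b and Htr4 and brings them to the cell surface, rose in D2 mutants by 1.29 (SE 0.138, adjusted p = 1.91e-07) and in D1 mutants by 1.13 (SE 0.148, adjusted p = 7.21e-06). It was lower in D1 than in D2 neurons, by -0.95 in mutants and -0.79 in controls. Grk5, a receptor kinase, rose in D2 mutants by 0.62 (adjusted p = 0.00166), and Arrb1, an arrestin that uncouples phosphorylated receptors, fell by -0.29 (adjusted p = 0.00444). No listed pathway gene was called for cocaine in any of the 4 combinations of subtype and genotype.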

How the data were processed

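Ribosome-bound RNA was measured on 27 Affymetrix Mouse Genome arrays, 13 from D1 and 14 from D2 neurons. Per the submitters' processing notes, the authors made the deposited log2 values in Affymetrix Expression Console 1.1 with RMA, while the design text names global scaling in another Affymetrix program. Array medians were 5.7 to 5.82, and no 2 arrays were identical. The number of arrays limits the precision. RMA shrinks differences of dim probe sets towards 0.

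Of 45101 probe sets 34945 had 1 gene symbol in the 2016 annotation, 932 had several and 9160 none, besides 64 controls. A gene was its probe set with the highest mean, and 12017 of 18193 genes passed the filter (above 6 on at least 3 arrays). One limma fit (limma 3.58.1, R 4.3.3) held all arrays, with 1 mean per group, drugs weighted equally in genotype and subtype contrasts, and p-values adjusted by Benjamini-Hochberg within each contrast. Fold values are 2 to the log2 difference. On simulated data 100% of 200 genes shifted by 1 in D2 mutants were recovered, with 14 false calls among 12017 genes. That shift is larger than every member difference for G9a loss. The run checks the code and does not tell how often differences of the members' size would be found.

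The labels give 2 to 4 mice per group, so p-values reflect how these mice varied. Arrays of the same replicate number in different groups of a subtype had a median correlation of deviations of 0.01 (-0.39 to 0.47), so numbers were not treated as pairs. The members and lists were chosen with earlier results of these data known. All members are named, with the 3 genes most correlated with each tested member and up to 3 genes per list and contrast by smallest p. Probe set, filter, normalization, moderation, samples, replicate block, RNA quality, Ttr and array alternatives were run; a cholinergic marker covariate and cocaine contrasts pooled over genotypes were added after the data were seen. Entrez identifiers of all 8 members matched RefSeq symbols, and 7 of 9 members stand in the promoter table.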

Additional observations from a re-analysis of the deposited data

Results flagged for a closer look

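In groups of 4 arrays, 32 sets of gene and group were examined for an array far from its group, and 2 had one, where chance gives about 1 in 20. Htr1b in D2 mutant cocaine replicate 2 was 12.03, against 11.76, 11.76 and 11.79 on the other arrays of its group. Without it the rise of Htr1b in D2 mutants kept its call. Chrm1 in D1 mutant cocaine replicate 4 was 9.02, against 9.51, 9.44 and 9.52 on the others. The effect of G9a loss on Htr1d differed between the subtypes by the interaction test, with D2 minus D1 at -0.44 (limma adjusted p = 0.0319), and this call ended without any 1 of 9 arrays.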

How the results depend on the processing

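For the tested members 43 differences were followed through the alternatives. Some of them are not given above, and some differences given above are not among them. Of the 43, 26 kept their direction and their side of the threshold in all 13 other settings and without any 1 of the 27 arrays. Most of these were differences that were not called and stayed so. The only calls among them were Htr2c and Htr4 between subtypes in controls, and the Htr1b rise (0.41 to 0.50 over arrays left out) and Htr2c fall (-0.71 to -0.62) in D2 mutants. All other calls among the 43 ended in some setting or without some array. No setting changed the Htr1b probe set, and its other probe set was at -0.03 in D2 mutants.

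The number of members called moved as follows. Between subtypes in mutants, 4 were called, against 2 with the replicate block and 0 with the cholinergic covariate, which itself separates the subtypes. In controls the block ended the Chrm1 call (-0.34, adjusted p = 0.128); in mutants it ended those of Chrm1 (-0.19, adjusted p = 0.362) and Htr1d (0.21, adjusted p = 0.137). Under the block Htr1b passed for G9a loss in D1 (0.38, adjusted p = 0.00501). Cyclic loess ended the Chrm1 call in mutants (-0.22, adjusted p = 0.0747). Replicate numbers do not pair these arrays: 9 of 27 were closest to their own number.

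For G9a loss in D1, 2 members were called, against 1 with the highest-variance probe set, 1 with median centring, 1 with D2 mutant cocaine replicate 4 as a control, 0 with only the compared groups, and 0 to 2 without 1 array. For the difference between subtypes, 1 was called, against 0 with the highest-variance probe set, 0 with that array as a control, 0 with the cholinergic covariate, and 0 to 1 without 1 array. For cocaine, 0 to 1 were called in D2 controls without 1 array; pooled in D2, 1 was called, against 0 with only the compared groups, 0 without the 3 high-Ttr arrays, 0 with the cholinergic covariate, and 0 to 1 without 1 array. Htr1d fell in D2 mutants under cyclic loess (-0.21, adjusted p = 0.0214), median centring (-0.22, 0.0269) and without D2 control cocaine replicate 2 (-0.21, 0.0394). The cause was not tested.

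Directions turned only for values near 0. Htr1b between subtypes was -0.08 in controls with the cholinergic covariate. In mutants it was 0.11 with cyclic loess, 0.10 with the replicate block, 0.00 with the Ttr covariate, 0.04 without the 3 high-Ttr arrays, and -0.09 to 0.04 without 1 array. Chrm1 in D1 mutants was -0.00 with median centring and -0.06 to 0.11 without 1 array.

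Over all genes, 3480 were called between subtypes in controls (1291 with the block, 464 with the cholinergic covariate, 2310 to 4083 without 1 array) and 5091 in mutants (2350 and 314). G9a loss in D2 called 1470 (855 with D2 mutant cocaine replicate 4 as a control, 866 with the covariate), and the difference between subtypes 119 (182 with the block, 18 with that array as a control). Cocaine called 0 to 16 within genotypes, and 0 to 69 over the other settings.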
